A study of Homo sapiens with 18 samples.

Results

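The comparison described here is that of C32 melanoma cells carrying short hairpin RNAs (shRNAs) against FHL2 with C32 cells carrying a GFP control vector. Its arrays were chosen by their labels, without use of measured values: 3 arrays of C32 FHL2 shRNA and 3 of C32 GFP, 6 of the 18 arrays of the series. GFP replicate 3 equalled the average of the other 2 GFP arrays to within an SD of 0.00669 log2 over 13428 probe sets, against 0.088 to 0.141 log2 for the other arrays of the series, so it was not counted and the comparison rests on 5 arrays, 3 against 2. The shRNA cells had received a lentiviral pool of 3 constructs directed at FHL2, which also carries a puromycin resistance gene, and the control cells a lentivirus that expresses GFP. Which of the series' GFP vectors was used is not stated, and no group carries a non-targeting shRNA, so loss of FHL2 and a difference between vectors cannot be told apart. Puromycin selection, sorting for GFP and culture are described for A375M2, the other line of the series; for C32 the labels describe none of these steps. The labels do not say that the C32 arrays came from separate cultures, so p-values here measure the spread between arrays, which may be technical. That spread was taken from 17 arrays of all 6 groups, so A375M2 arrays enter it as well.

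FHL2 belongs to the FHL family, small proteins made of zinc-binding LIM domains that hold other proteins together. It sits at focal adhesions, where it binds integrins, and in the nucleus, where it acts as a cofactor of transcription factors such as the androgen receptor, AP-1 and beta-catenin. C32 is an established human melanoma line that is known as amelanotic, meaning poor in pigment. Melanoma cells descend from pigment cells, whose genes are switched on by the transcription factors MITF and SOX10.

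All values are log2 GCRMA signals, a background-corrected and normalised measure of probe set brightness. They compare a probe set between samples and do not rank one gene's RNA against another's. The 9 melanocyte lineage markers measured ranged from 4.08 (PMEL) to 14.20 (MITF) in shRNA cells and from 7.61 (PMEL) to 14.96 (MITF) in GFP cells, with 8 lower and 0 higher in shRNA cells at a limma adjusted p under 0.05, against 30.3% lower and 32.2% higher of all genes tested. The keratinocyte markers KRT14, KRT8 and KRT18 were at 2.46, 3.16 and 2.17 in shRNA cells and 2.48, 3.17 and 2.17 in GFP cells, near the lowest values, and DSP was at 2.08 and 2.49. DSG2, ESRP1 and SFN of the same list were well above them, at 11.51, 9.95 and 7.34 in shRNA cells and 12.01, 10.56 and 7.11 in GFP cells. Of all 7 keratinocyte markers 0 were higher and 3 lower, of 5 fibroblast markers 2 were higher and 1 lower, and of the endothelial markers only KDR was measured. Poly-A spike-in probe sets, which report RNA added during labelling, read 5.96 ± 0.04 in shRNA cells (SD, n = 3) and 9.37 ± 0.28 in GFP cells (SD, n = 2). Hybridisation spike-ins, added after labelling, read 11.87 ± 0.05 in shRNA cells and 12.79 ± 0.14 in GFP cells. Probe sets for 18S ribosomal RNA read 13.94 ± 0.10 in shRNA cells and 13.28 ± 0.13 in GFP cells, those for 28S 11.37 ± 0.11 and 11.28 ± 0.04, and the 3′ minus 5′ difference of actin was 0.87 ± 0.04 in shRNA cells and 1.08 ± 0.02 in GFP cells. These controls, 28S apart, move with the label in every result below, and their part in the results was not tested. Array medians lay at 8.025 to 8.064 in shRNA cells and 8.087 to 8.095 in GFP cells.

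FHL2 itself checked the labels. Its single probe set read 6.10, 6.10 and 5.30 on the shRNA arrays, against 11.12 and 11.03 on the GFP arrays, and the groups did not overlap. The log2 difference was -5.24 (SE 0.161, limma adjusted p = 2.45e-14), which is 37.8-fold lower in shRNA cells. In a fit of the 5 C32 arrays alone the difference was the same, with a limma adjusted p of 0.000409. FHL3, the other measured member of its family, lay under log2 4 in both groups, at 2.83 ± 0.24 in shRNA cells and 3.41 ± 0.03 in GFP cells, so its difference of -0.57 has little weight. NFYA, a subunit of NF-Y, which binds CCAAT boxes, and a gene that the series also silenced in A375M2, stood at 9.45 ± 0.03 in shRNA cells and 9.57 ± 0.09 in GFP cells, and its difference of -0.12 did not pass the test (adjusted p = 0.336).

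Of 10940 genes 6847 differed (62.6%): 3527 were higher in shRNA cells (32.2%) and 3320 lower (30.3%), at a limma adjusted p under 0.05. The median difference of all genes was 0.00, and the 5th to the 95th percentile ran between -1.0 and 0.88. At least 2-fold, 385 genes were higher (3.52%) and 551 lower (5.04%). With so many genes past the test, a gene group is described below by how far its shares depart from these, and by the size of its differences. The arrays of the groups did not overlap for 8157 genes (74.6%). In bulk RNA, more or fewer cells of a kind and more or less RNA per cell cannot be told apart.

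**Figure D1:**
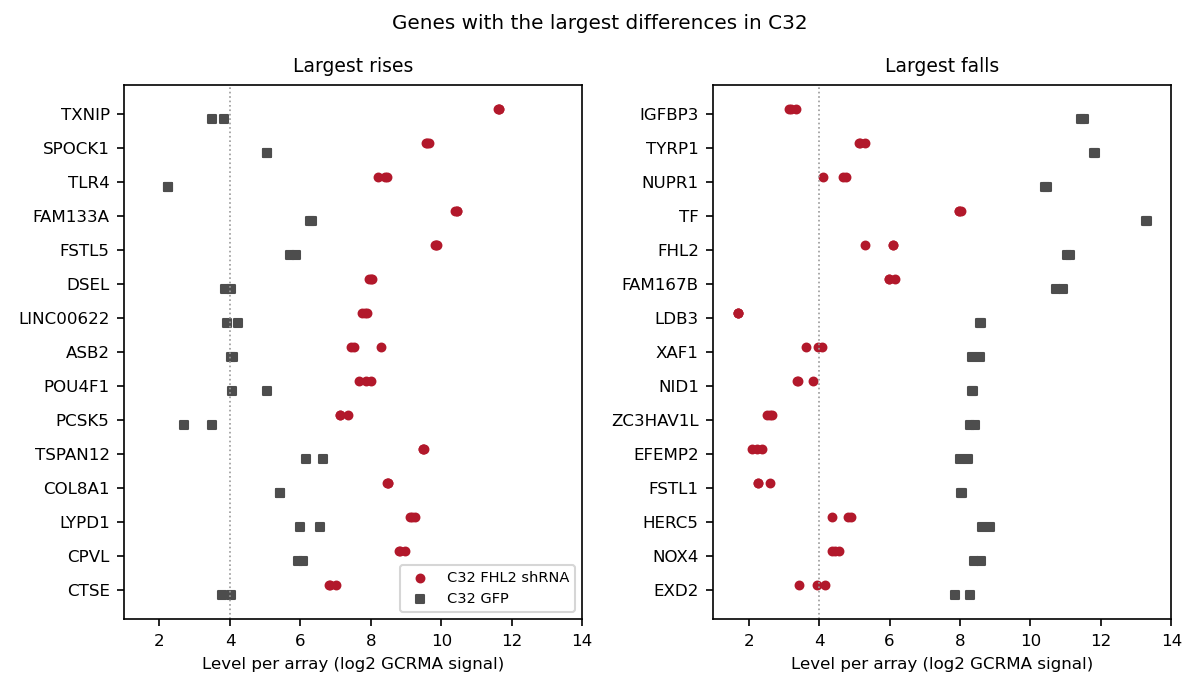
Log2 signal of the 15 genes with the largest rises and the 15 with the largest falls in FHL2 shRNA cells. Each point is 1 array, with shRNA above GFP for each gene; TXNIP has shRNA points at 11.62 to 11.65 and GFP points at 3.49 and 3.82, and for no gene shown do the groups overlap.

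TXNIP had the largest rise. It encodes an alpha-arrestin that binds thioredoxin and removes glucose transporters from the cell surface. Its values were 11.65, 11.62 and 11.65 in shRNA cells, against 3.82 and 3.49 in GFP cells. The difference of 7.98 (SE 0.0669, limma adjusted p = 2.46e-22) was 7.64 with values under log2 4 set to 4, and its 3 probe sets gave 7.20 to 7.98. ARRDC4, the closest relative of TXNIP and like it a target of the glucose-sensing factor MondoA, read 9.83, 9.64 and 9.71 in shRNA cells and 7.57 and 7.24 in GFP cells. Its difference was 2.33 (SE 0.0852, limma adjusted p = 2.58e-13), and the groups did not overlap. Over 14 measured genes of this list 5 were higher and 6 lower, with a median of -0.01, so the list had no common direction. ARRDC3, another alpha-arrestin, fell by 0.36, and PFKFB4, which makes an activator of glycolysis, rose by 0.94. PFKFB3, of the same enzyme family, fell by 0.36.

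The promoter of TXNIP is shown because MondoA acts through a carbohydrate response element. It is given for GRCh38.p14, from RefSeq, as the 150 bases just before the gene's start on the minus strand of chromosome 1 (chr1:145996580-145996729), with capitals on the stretch that matches a pair of CACGNG with 5 bases between.
TXNIP: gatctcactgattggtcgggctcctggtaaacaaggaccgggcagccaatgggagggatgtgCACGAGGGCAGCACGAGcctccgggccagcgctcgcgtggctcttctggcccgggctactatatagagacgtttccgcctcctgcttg
Of the 13 genes of the list with a promoter in the RefSeq table, TXNIP alone held these letters within 250 bases before its start, on either strand, as did 0.132% of the promoters of all genes tested. A match is a description of the sequence and not evidence of binding.

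The other genes among the 15 largest rises had varied roles. SPOCK1, a secreted proteoglycan, read 9.57, 9.59 and 9.66 in shRNA cells and 5.05 on both GFP arrays, 23.5-fold higher. TLR4, the receptor of bacterial lipopolysaccharide, read 8.46, 8.19 and 8.40 in shRNA cells and 2.25 on both GFP arrays. The TLR4 difference was 6.10, or 4.35 with values under log2 4 set to 4, and its 4 probe sets ranged from 0.68 to 6.10. FAM133A and the noncoding LINC00622 rose by 4.11 and 3.75. FSTL5, a secreted follistatin-like protein, rose by 4.06 and COL8A1, a short-chain collagen, by 3.06. POU4F1, a transcription factor of sensory neurons, read 7.67, 7.85 and 8.0 in shRNA cells and 5.05 and 4.06 in GFP cells, a difference of 3.28 (SE 0.226). PCSK5, a protease that activates secreted precursors, rose by 4.10 (3.20 with the floor), though its 3 probe sets ranged from 0.89 to 4.10. TSPAN12, a tetraspanin of the Norrin and FZD4 receptor complex, rose by 3.08, with 3 probe sets from 0.87 to 3.08, and ASB2, the substrate-binding part of a ubiquitin ligase, by 3.70. CTSE and CPVL, an aspartic protease and a serine carboxypeptidase, rose by 2.98 and 2.87.

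IGFBP3 led the falls. It encodes a protein that carries insulin-like growth factors outside the cell and limits their access to the receptor. Its values were 3.35, 3.19 and 3.14 in shRNA cells, against 11.51 and 11.45 in GFP cells. Its difference of -8.25 (SE 0.0553, limma adjusted p = 1.16e-23) was -7.48 with the floor, and its 2 probe sets gave -7.15 and -8.25. The melanin enzyme TYRP1, the stress-induced chromatin protein NUPR1 and transferrin (TF) followed. TF read 7.97, 7.96 and 8.04 in shRNA cells and 13.28 and 13.32 in GFP cells, 39.7-fold lower. FAM167B changed by -4.77, and NOX4, an oxidase that makes hydrogen peroxide, by -4.03, with its other probe set at -1.10. EXD2, a nuclease, changed by -4.22 and ZC3HAV1L by -5.76 (-4.01 and -4.36 with the floor).

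The pigment genes fell in C32 together with their regulators. Of 15 measured genes of melanosome structure and pigment synthesis, 11 were lower and 2 higher (1 higher without GFP replicate 2), 7 of the 11 at least 2-fold, with a median of -0.95. TYRP1 read 5.16, 5.13 and 5.29 in shRNA cells and 11.81 and 11.82 in GFP cells, a difference of -6.62 (SE 0.177, limma adjusted p = 3.57e-15). PMEL, the protein of melanosome fibrils, read 4.03, 4.22 and 3.98 against 7.53 and 7.70 in GFP cells, 11.6-fold lower. RAB38, which sorts pigment enzymes to the melanosome, fell by 3.62. MLPH and RAB27A, which tie melanosomes to the motor that moves them along actin, changed by -1.90 and -1.74. MLANA, a melanosome membrane protein, changed by -1.75, and tyrosinase (TYR), the rate-limiting enzyme of melanin synthesis, by -0.95, with values of 12.50, 12.60 and 12.51 in shRNA cells and 13.42 and 13.55 in GFP cells. GPR143 stood at 2.18 in both groups and OCA2 at 3.84 and 3.66, both near the lowest values, so the array cannot show a difference for them.

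Of 16 measured transcription factors of the melanocyte lineage, 11 were lower and 3 higher, with a median of -0.38. SOX10 read 11.80, 11.75 and 11.83 in shRNA cells and 12.84 and 12.92 in GFP cells, a difference of -1.08 (SE 0.0446, limma adjusted p = 1.08e-12). MITF changed by -0.76, with 14.20 ± 0.10 in shRNA cells and 14.96 ± 0.05 in GFP cells, and SOX9 and SNAI2 changed by -0.70 and -0.69. LEF1, a partner of beta-catenin, TFEC, a relative of MITF, and the neural factor POU3F2 rose by 0.69, 0.94 and 0.60. Among 19 neural crest and Schwann-cell genes 8 were lower and 1 higher; CDH19 and S100B, both of Schwann cells and melanocytes, changed by -1.45 and -0.89, and the 1 riser was TWIST1 at 0.30.

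MITF binds the letters CATGTG, and the promoters of the largest and the smallest of the named falls among pigment genes are shown with those letters, or their complement CACATG, in capitals. Each is the 150 bases before the start in GRCh38.p14, from RefSeq, on the plus strand: chr9:12693235-12693384 for TYRP1 and chr11:89177725-89177874 for TYR.
TYRP1: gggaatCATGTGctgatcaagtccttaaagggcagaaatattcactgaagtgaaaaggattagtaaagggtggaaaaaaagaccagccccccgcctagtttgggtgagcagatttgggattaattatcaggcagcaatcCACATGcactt
TYR: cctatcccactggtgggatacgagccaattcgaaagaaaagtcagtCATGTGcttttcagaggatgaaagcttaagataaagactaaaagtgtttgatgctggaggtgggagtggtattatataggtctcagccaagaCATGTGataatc
Each window held the letters in 2 places. Within 250 bases before the start, 5 of the 12 pigment genes with a promoter held the letters (41.7%), against 5.32% of 9058 promoters. Of the 5, 3 fell, TYR and TYRP1 among them. Of all 15 measured pigment genes 73.3% were lower.

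Lysosomal genes, which share regulators with melanosomes, were also mostly lower. Of 27 measured, 20 were lower and 4 higher, with a median of -0.42. The proteases CTSO, CTSF, CTSB and CTSA changed by -2.68, -1.58, -1.19 and -1.06, and PSAP, the precursor of sphingolipid activators, by -0.88. CTSS, a protease of antigen-presenting cells, went the other way at 1.11. The 16 subunits of the V-ATPase, the pump that acidifies both organelles, showed 3 lower and 2 higher, with a median of -0.03.

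**Figure D2:**
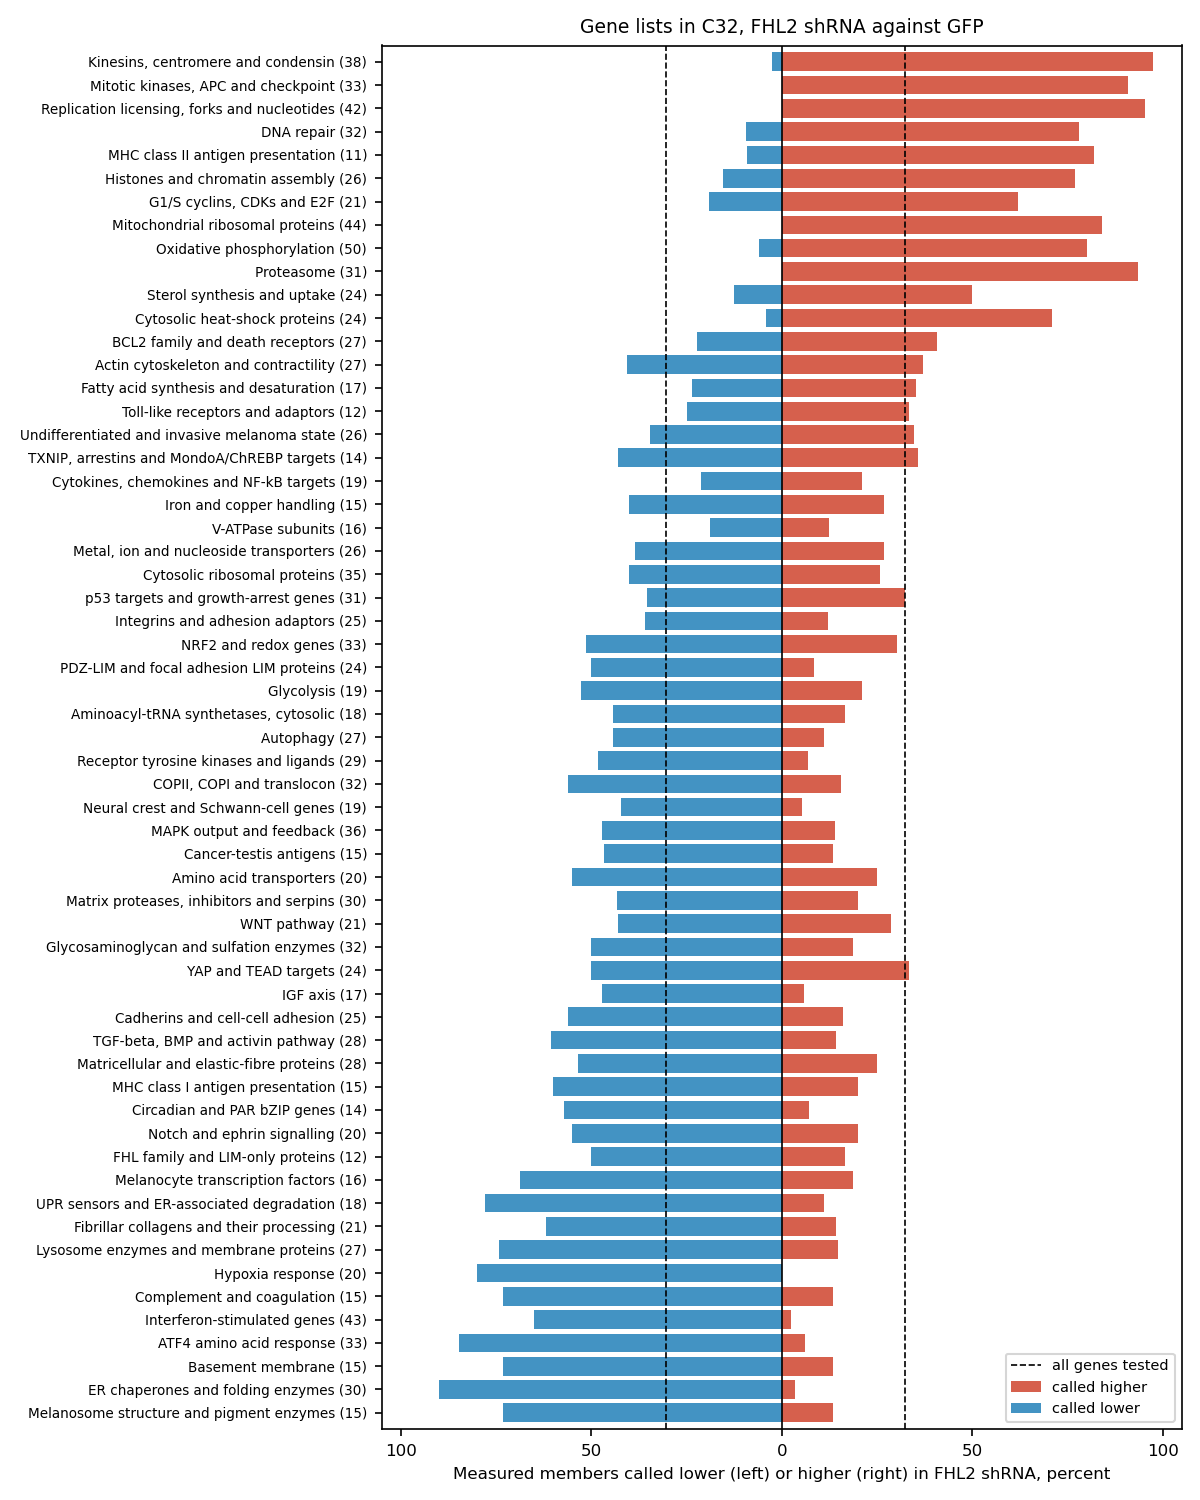
Share of each gene list called higher (right) and lower (left) in FHL2 shRNA cells, with the number of measured genes in brackets after each name. The list of replication genes has 95.2% higher and 0% lower, that of ER chaperones 3.33% higher and 90% lower, and over all genes 32.2% were higher and 30.3% lower.

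Genes of protein folding in the endoplasmic reticulum (ER) fell nearly throughout. ER chaperones and folding enzymes help secreted and membrane proteins take shape, and the unfolded protein response raises them when the ER is overloaded. Of 30 measured, 27 were lower and 1 higher, 11 at least 2-fold lower, with a median of -0.91. PDIA4, a disulfide isomerase, read 13.40, 13.32 and 13.44 in shRNA cells and 15.64 and 15.74 in GFP cells, 4.93-fold lower. FKBP11, a prolyl isomerase of secretory cells, fell by 2.14 with 3 probe sets from -2.28 to -2.14. The chaperones HYOU1, HSP90B1 and CALR changed by -1.84, -1.78 and -1.33, and CRELD2, a secreted stress protein, by -1.34. FKBP14 and ERO1B, at 0.09 and -0.11, did not pass the test with their brightest probe sets. Another probe set of FKBP14 was higher by 0.40, and the other of ERO1B was lower, at -0.28. Among 18 sensors and ER-associated degradation genes, 14 were lower and 2 higher (1 higher without GFP replicate 1). ERN1, the sensor that splices XBP1, changed by -1.51, XBP1 by -1.01, and SEL1L and HERPUD1, which pass misfolded proteins to the proteasome, by -1.37 and -1.10. ERN1's other probe set gave -0.65. Of 32 genes of the translocon and of vesicle coats, 18 were lower and 5 higher (3 higher without GFP replicate 1), with a smaller median of -0.15.

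The ER stress element joins a CCAAT box, bound by NF-Y, to a site for ATF6 at a fixed spacing. A pair of promoters whose 150 bases before the start hold it are shown, HSP90B1 at chr12:103930260-103930409 and CRELD2 at chr22:49918484-49918633, both on the plus strand (GRCh38.p14, RefSeq). Capitals mark the match to CCAAT and CCACG with 9 bases between, here on the opposite strand.
HSP90B1: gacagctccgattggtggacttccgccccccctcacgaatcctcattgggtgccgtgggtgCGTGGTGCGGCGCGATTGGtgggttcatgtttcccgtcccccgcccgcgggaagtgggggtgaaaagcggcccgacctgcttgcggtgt
CRELD2: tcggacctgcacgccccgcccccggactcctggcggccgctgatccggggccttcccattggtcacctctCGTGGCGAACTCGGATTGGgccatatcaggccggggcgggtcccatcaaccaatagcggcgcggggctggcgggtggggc
The element lay within 250 bases before the start in 6 of 27 folding genes with a promoter (22.2%), 5 of which fell, and in 12 of 9058 promoters (0.132%). The shorter CCAAT, which the element contains, lay in 20 of the 27 (74.1%), against 35.5% of all promoters. Of the 20, 19 fell and 0 rose. Of all 30 measured genes of the list 90% were lower, and genes with and without CCAAT were not compared. NFYB, another subunit of NF-Y, rose by 0.58 (9.50 ± 0.06 in shRNA cells, 8.92 ± 0.05 in GFP cells). NFYC at -0.08 did not pass the test with its brightest probe set. Of its 4 probe sets 3 were higher and 0 lower, and the one of largest variance gave 0.41.

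Genes of the amino acid response, which the factor ATF4 switches on when amino acids run short, fell as well. Of 33 measured, 28 were lower and 2 higher, 11 at least 2-fold lower, with a median of -0.64. NUPR1 read 4.76, 4.11 and 4.68 in shRNA cells and 10.42 and 10.47 in GFP cells, 61-fold lower. SLC7A11, which imports cystine, read 9.23, 9.17 and 9.22 in shRNA cells and 13.13 and 13.24 in GFP cells (-3.98, SE 0.044, limma adjusted p = 1.75e-20). Asparagine synthetase (ASNS) read 9.51, 9.45 and 9.41 in shRNA cells and 12.17 and 12.16 in GFP cells, a difference of -2.70. CBS, which starts cysteine synthesis from homocysteine, fell by 2.47 (-2.02 with the floor). SLC3A2, the partner chain of SLC7A11, changed by -1.64, and SLC1A4, a carrier of serine and alanine, by -1.50. PSPH, which makes serine, did not pass the test at 0.08.

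Charging enzymes and carriers for amino acids overlap this response. Of 18 cytosolic aminoacyl-tRNA synthetases 8 were lower and 3 higher; WARS1 and SARS1, for tryptophan and serine, changed by -1.70 and -0.90, while NARS1 and EPRS1, at -0.02 and 0.01, did not pass the test. Of 20 amino acid transporters 11 were lower and 5 higher. SLC7A8, a carrier of large neutral amino acids, rose by 1.98 and SLC1A1, a glutamate carrier, by 0.98, whereas SLC1A5 and SLC7A5 changed by -1.27 and -0.54. ATF4 acts through a composite element, and the ASNS promoter is shown with the match to TGATGNAA in capitals, as the 150 bases before the start on the minus strand (chr7:97872409-97872558, GRCh38.p14, RefSeq).
ASNS: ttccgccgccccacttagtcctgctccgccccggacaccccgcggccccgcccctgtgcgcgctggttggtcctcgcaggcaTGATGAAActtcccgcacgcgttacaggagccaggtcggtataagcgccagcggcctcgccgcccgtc
These letters were in 3 of 27 promoters of the list (11.1%), of which 2 fell, against 1.45% of all promoters. Of all 33 measured genes of the ATF4 list 84.8% were lower.

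Interferon-stimulated genes, the antiviral set that cells raise on sensing interferon or viral RNA, were lower in shRNA cells. Of 43 measured, 28 were lower and 1 higher (0 without GFP replicate 1, 2 without shRNA replicate 2), 12 at least 2-fold lower, with a median of -0.58. XAF1, which binds an inhibitor of apoptosis, read 3.64, 4.08 and 3.98 in shRNA cells and 8.58 and 8.35 in GFP cells, 23.7-fold lower. HERC5, the ligase that attaches ISG15, read 4.82, 4.90 and 4.38 against 8.63 and 8.85 in GFP cells. SAMD9L changed by -4.44 (-3.70 with the floor) and OAS1, which makes the activator of an antiviral RNase, by -2.91. IFI6 and ISG20 changed by -1.79 and -1.73. The strongly expressed IFITM3 and PLSCR1, at -0.05 and -0.08, did not pass the test, nor did IFITM1 and UBE2L6 at -0.06 and -0.01. The fall thus did not cover the whole list, though the other probe set of PLSCR1 was lower, at -0.27.

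The interferon-stimulated response element is shown in 2 of the promoters that fell, HERC5 on the plus strand at chr4:88456969-88457118 and IFI6 on the minus strand at chr1:27672193-27672342 (GRCh38.p14, RefSeq, 150 bases before the start). Capitals mark a pair of GAAA with 2 bases between, on either strand; in HERC5 a pair of matches overlap.
HERC5: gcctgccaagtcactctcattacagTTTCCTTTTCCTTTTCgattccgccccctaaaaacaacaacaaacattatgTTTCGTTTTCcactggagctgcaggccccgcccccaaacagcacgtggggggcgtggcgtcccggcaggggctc
IFI6: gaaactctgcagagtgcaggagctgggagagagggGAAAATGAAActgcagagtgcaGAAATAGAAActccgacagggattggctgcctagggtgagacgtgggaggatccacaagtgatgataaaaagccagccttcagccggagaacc
The element was in 18 of 35 promoters of the list (51.4%), against 2.37% of all promoters. Of the 18, 11 fell, 0 rose and 7 did not pass the test. Of all 43 measured genes of the list 65.1% were lower.

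Antigen presentation split by class. Of 11 measured genes of MHC class II, which shows outside peptides to helper T cells, 9 were higher and 1 lower, with a median of 0.54; against a minimum of 1.5-fold 2 were higher. HLA-DRA read 14.06, 14.13 and 14.15 in shRNA cells and 12.66 and 12.83 in GFP cells, 2.59-fold higher, and its other probe set gave 1.24. HLA-DMB, which loads peptides, rose by 1.24, and CIITA, the master activator of class II, by 0.89 (7.05 ± 0.20 in shRNA cells, 6.16 ± 0.23 in GFP cells). HLA-DRB1, HLA-DQB1, HLA-DMA, HLA-DPB1, HLA-DPA1 and CD74 rose by 0.65, 0.71, 0.54, 0.51, 0.47 and 0.40. RFX5, a promoter factor of these genes, fell by 0.14, a call that was lost without GFP replicate 2 (-0.10, limma adjusted p = 0.136). Another probe set of HLA-DQB1 gave a difference of 0.00. The leukocyte markers moved in opposite directions, PTPRC at -0.83 and LYZ at 1.98, the second of which was 0.99 without GFP replicate 1. Of 15 class I genes, which show the cell's own peptides, 9 were lower and 3 higher, with a median of -0.28. HLA-B read 13.22, 13.25 and 13.24 in shRNA cells and 14.05 on both GFP arrays, and HLA-C, HLA-E, HLA-F and HLA-G changed by -0.60, -0.59, -0.73 and -0.77. Class I genes are near-identical in sequence, so their probe sets may read each other. B2M, the shared light chain, did not pass the test at -0.02. The immunoproteasome subunits PSMB9 and PSMB8 lay at -0.97 and 0.73.

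Innate receptors and cytokines showed no common direction. Of 12 Toll-like receptors and adaptors 4 were higher and 3 lower. TLR3, a sensor of double-stranded RNA, read 3.71, 2.74 and 3.77 in shRNA cells and 6.20 and 6.12 in GFP cells, while the adaptors MYD88 and TRAF6 rose by 0.15 and 0.43. MYD88 did not pass without GFP replicate 1 (0.10, limma adjusted p = 0.123) or TRAF6 without GFP replicate 2 (0.31, limma adjusted p = 0.0612), and the count of risers was 2 without GFP replicate 1; another probe set of TRAF6 gave -0.05. LY96, which TLR4 needs to bind lipopolysaccharide, fell by 0.46, at 12.83 in shRNA cells and 13.29 in GFP cells. Of 19 cytokines and NF-kB targets 4 were higher and 4 lower. The median level of this list in GFP cells was 3.27, under log2 4, so for many of its genes the array cannot show a fall. With the floor 2 were higher. CXCL8, which draws neutrophils, changed by -2.48 and ICAM1 by -1.01, and LIF and TNFAIP3 rose by 0.95 and 0.84. Of 15 complement and coagulation genes 11 were lower and 2 higher, with a median of -0.57, and the count of risers fell to 0 without shRNA replicate 1, shRNA replicate 3 or GFP replicate 2; C1R, PLAT and the complement inhibitor CD55 changed by -1.97, -1.11 and -1.48.

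Cell division genes rose. Of 38 kinesin, centromere and condensin genes, which build and pull the mitotic chromosome, 37 were higher and 1 lower, 15 at least 2-fold higher, with a median of 0.95. SKA3, which holds microtubules at the kinetochore, read 8.14, 8.19 and 8.05 in shRNA cells and 6.28 and 6.25 in GFP cells (1.86, SE 0.096, limma adjusted p = 1.99e-11). CENPA, the histone of centromeres, read 8.44, 8.43 and 8.32 against 7.23 and 6.33 in GFP cells, so its GFP arrays were far apart. SPC24 and SPC25, of the NDC80 complex, rose by 1.68 and 1.51, and CENPE and KIF2C, motors of chromosome movement, by 1.33 and 1.31. Of 33 mitotic kinases, anaphase-promoting complex and checkpoint genes, 30 were higher and 0 lower, with a median of 0.92. SGO1, which protects cohesion, rose by 1.94, MYBL2, an activator of these genes, by 1.57, and AURKB, the kinase that corrects attachments, by 1.20. ESPL1, the protease that cuts cohesin, rose by 1.24 and BUB1B, of the spindle checkpoint, by 1.09. WEE1, PKMYT1 and FZR1, at 0.05, 0.23 and -0.19, did not pass the test, and PKMYT1 was at 0.61 without GFP replicate 2. The other probe set of FZR1 went the other way at 1.04, from low levels of 4.75 in shRNA cells and 3.71 in GFP cells. For WEE1, 1 of 2 probe sets was lower. WEE1 and PKMYT1 hold CDK1 inactive, and FZR1 directs the anaphase-promoting complex after mitosis.

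Promoters of mitotic genes often pair CCAAT boxes with a cell cycle gene homology region, TTTGAA, which the DREAM complex binds. HMMR, a spindle protein that read 11.63, 11.63 and 11.61 in shRNA cells and 10.36 and 10.37 in GFP cells, is shown for the 150 bases before its start on the plus strand (chr5:163460482-163460631, GRCh38.p14, RefSeq). Capitals mark 4 CCAAT matches on either strand and 2 of TTTGAA.
HMMR: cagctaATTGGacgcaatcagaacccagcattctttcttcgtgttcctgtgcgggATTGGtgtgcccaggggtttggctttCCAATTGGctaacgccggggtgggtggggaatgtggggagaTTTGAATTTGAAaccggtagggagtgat
Within 250 bases before the start, CCAAT lay in 17 of 25 promoters of the mitotic kinase list (68%), all 17 of genes that rose, and TTTGAA in 10 (40%), 9 of genes that rose. All promoters gave 35.5% and 8.78%. The kinesin list had CCAAT in 23 of 36 (63.9%), 22 of them of genes that rose, and TTTGAA in 12 (33.3%). Of all measured genes, 90.9% of the mitotic kinase list and 97.4% of the kinesin list were higher. Genes with and without the letters were not compared. The CCAAT box was therefore common both in promoters of mitotic genes that rose and in those of ER folding genes that fell.

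DNA replication and repair genes moved with them. Of 42 genes of licensing, forks and nucleotide supply, 40 were higher and 0 lower, with a median of 0.72. PRIM2, a primase subunit, rose by 1.38 and CDC45, of the replicative helicase, by 1.18. RFC3, a clamp loader subunit, and RRM2, which makes deoxynucleotides, each rose by 1.17. MCM5 and LIG1, at 0.15 and 0.32, did not pass the test. The E2F letters TTTCCCGC were in 9 of 36 promoters of this list (25%), 8 of genes that rose, and in 2.31% of all promoters. Of 32 DNA repair genes 25 were higher and 3 lower; CHEK2 and EXO1, a checkpoint kinase and an exonuclease, rose by 1.48 and 1.46, and the recombination genes RAD54B and XRCC2 by 1.36 and 1.19. Of 26 histone and chromatin assembly genes 20 were higher and 4 lower (2 lower without GFP replicate 2). H1-2, a linker histone whose sequence is close to that of its neighbours, read 9.40, 9.50 and 9.50 in shRNA cells and 7.65 and 7.29 in GFP cells. The lamins LMNB1 and LMNB2 rose by 1.00 and 1.03, and EZH2, a histone methyltransferase, by 0.81.

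Genes of cycle entry were more often higher than lower (61.9% and 19%), and growth-arrest genes were mixed. Of 21 cyclins, CDKs and E2F genes of G1/S, 13 were higher and 4 lower, with a median of 0.48. CKS2, a CDK adaptor, rose by 1.12, TFDP1, the partner of E2F, by 1.09, and SKP2, which marks the inhibitor p27 for destruction, by 0.95. TFDP2, a relative of TFDP1, fell by 1.67, with 5.52 in shRNA cells and 7.19 in GFP cells. CDK6, RBL2 and E2F3, at 0.05, -0.09 and -0.05, did not pass the test. Of 31 p53 targets and growth-arrest genes 10 were higher and 11 lower. The CDK inhibitor CDKN1C read 7.21, 7.16 and 7.13 in shRNA cells and 9.04 and 9.20 in GFP cells, 3.87-fold lower, whereas CDKN1A, another inhibitor, rose by 0.68. PMAIP1 and BAX, which trigger apoptosis, rose by 1.56 and 1.33, and MDM2 at 0.13 did not pass the test with its brightest probe set, while 5 of its 8 probe sets were higher, one of them by 0.67. CDKN1B, which encodes p27, did not pass it either, at 0.09.

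**Figure D3:**
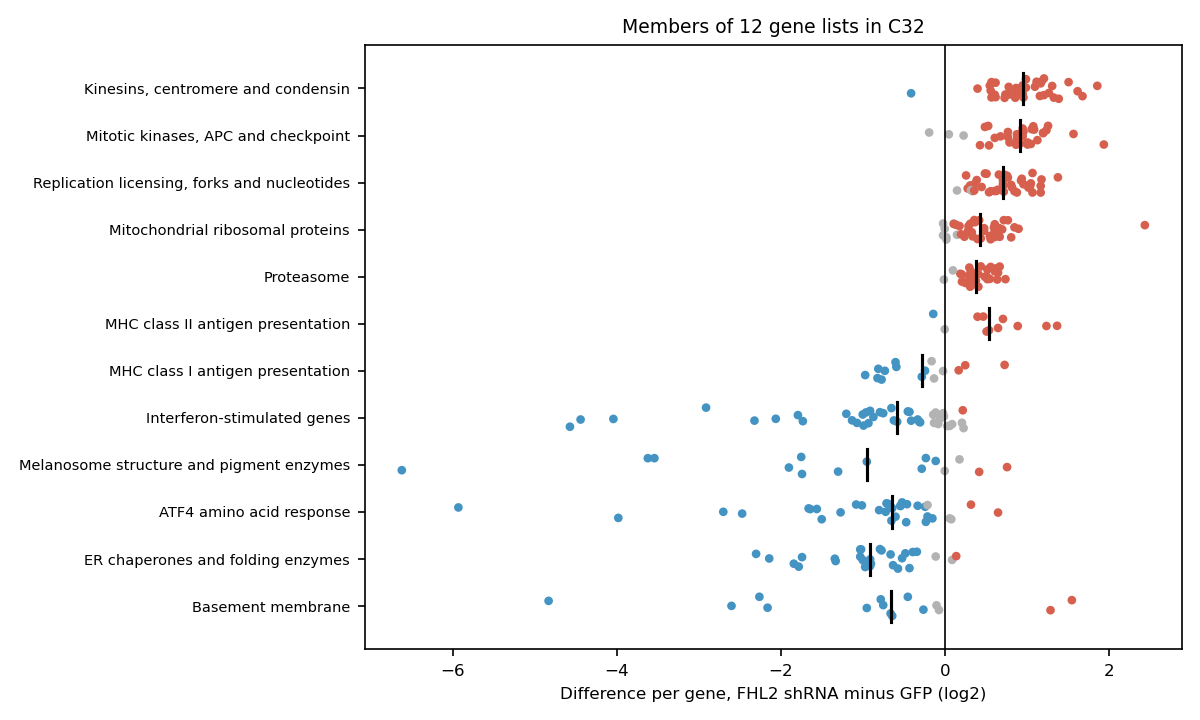
Log2 difference, FHL2 shRNA minus GFP, of every measured member of 12 gene lists. Each point is 1 gene, red where higher, blue where lower and grey where not past the test, and the black bar is the list's median, 0.95 for kinesins and -0.91 for ER chaperones.

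Mitochondrial and proteasome genes rose by small amounts. Against a minimum of 1.5-fold, 5 mitochondrial ribosomal proteins, 3 oxidative phosphorylation genes and 1 proteasome gene were higher. Of 44 mitochondrial ribosomal proteins 37 were higher and 0 lower, with a median of 0.43. MRPS15 differed most, at 5.88, 5.63 and 5.72 in shRNA cells and 3.24 and 3.36 in GFP cells, and the others called differed by less than 2-fold. MRPL39 and MRPL44 rose by 0.90 and 0.85. Of 50 genes of oxidative phosphorylation 40 were higher and 3 lower, with a median of 0.41; CYC1 and ATP5MC1, of the respiratory chain and the ATP synthase, rose by 0.79 and 0.77, and NDUFC1, of the first complex of the chain, fell by 0.71. PPARGC1A, the coactivator that raises mitochondrial genes and is a target of MITF in melanoma, fell by 0.89 (8.40 ± 0.04 in shRNA cells, 9.29 ± 0.08 in GFP cells). Of 31 proteasome genes 29 were higher and 0 lower, with a median of 0.38, led by PSMB7 at 0.74. Of 24 cytosolic heat-shock genes 17 were higher and 1 lower. HSPB8, a small heat-shock protein, rose by 1.94, and HSPH1, a nucleotide exchange factor, by 1.11, while HSPA2, a family member known from testis, fell by 1.27. The cytosolic and the ER chaperones therefore moved in opposite directions. The 35 cytosolic ribosomal proteins gave 9 higher and 14 lower (5 and 8 in a fit of the C32 arrays alone), with a median of -0.04.

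Lipid genes differed by list, with 50% of the sterol list higher and 12.5% lower, against 35.3% and 23.5% of the fatty acid list. Against a minimum of 1.5-fold, 1 sterol gene was higher. Of 24 genes of sterol synthesis and uptake 12 were higher and 3 lower, with a median of 0.26; HMGCS1, the enzyme that makes HMG-CoA, rose by 0.68, and ABCA1, which exports cholesterol, by 1.46. MSMO1, an enzyme of the same pathway, fell by 0.55. Of 17 fatty acid genes 6 were higher and 4 lower, with ELOVL6, which lengthens saturated fatty acids, at 1.53 and ACSL1, which activates them, at -1.50.

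Hypoxia genes were mostly lower. Of 20 measured 16 were lower and 0 higher, with a median of -0.45. EPAS1, the oxygen-sensitive factor HIF-2 alpha, read 7.35, 7.42 and 7.32 in shRNA cells and 8.92 and 8.86 in GFP cells, and ADM, a vessel-relaxing peptide, fell by 1.43. BNIP3 and EGLN1, at 0.06 and -0.10, did not pass the test, though the other probe set of BNIP3 was higher by 0.20. Of 19 glycolysis genes 10 were lower (6 in a fit of the C32 arrays alone, and 6 with the probe set of largest variance) and 4 higher. The glucose transporters SLC2A1 and SLC2A3 changed by -1.11 and -0.99, and ENO2 by -1.06. GAPDH and PGK1, at 0.03 and 0.01, did not pass the test with their brightest probe sets. Of the 6 probe sets of PGK1 3 were higher, and the one of largest variance gave 0.80. The other probe set of GAPDH gave -0.08. Of 33 genes of redox defence and the factor NRF2 17 were lower and 10 higher. ME1, which makes NADPH, fell by 1.55, and GSR, which reduces glutathione, rose by 0.72. GCLC and GCLM, which make glutathione, did not pass the test at 0.07 and -0.02, though another probe set of GCLM was higher by 0.27. TXNRD1, the reductase of thioredoxin, fell by 0.69.

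Genes of the extracellular matrix were mostly lower. Basement membranes are sheets of laminin and type IV collagen joined by nidogen. Of 15 measured genes 11 were lower and 2 higher, with a median of -0.66. NID1 read 3.82, 3.39 and 3.38 in shRNA cells and 8.38 and 8.35 in GFP cells, a difference of -4.83 (-4.36 with the floor), while its other probe set gave -0.85. COL4A1 and COL4A2 changed by -2.60 and -2.26 and LAMA4 by -2.16; the other probe sets of LAMA4 ranged up to -0.35. COL15A1 and FREM2, at 1.55 and 1.29, were the 2 risers. Of 28 matricellular and elastic-fibre genes 15 were lower and 7 higher. EFEMP2, which helps assemble elastin, read 2.25, 2.11 and 2.37 in shRNA cells and 7.99 and 8.23 in GFP cells (-5.87, or -4.11 with the floor), and its other probe set gave -4.60. FSTL1, a secreted glycoprotein, fell by 5.68 (-4.05 with the floor). FN1, fibronectin, fell by 1.12, with 6 probe sets from -3.75 to -1.12. THBS1 was at -2.74, while its other 2 probe sets, at 0.00 and -0.07, lay near the lowest values.

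Collagen, proteases and sugar chains went both ways. Of 21 fibrillar collagen and processing genes 13 were lower and 3 higher; LOXL4 and PLOD1, which modify collagen lysines, changed by -1.23 and -0.98, and COL12A1 by -2.58 (-1.20 with the floor). Of 30 matrix proteases and inhibitors 13 were lower and 6 higher: SERPINA3, an inhibitor of cathepsin G, changed by -2.83 and TIMP3, which blocks metalloproteases, by -1.32, while PLAUR, the urokinase receptor, and ADAM19 each rose by 1.58. Of 32 glycosaminoglycan and sulfation enzymes 16 were lower and 6 higher. DSEL, which makes dermatan sulfate, read 8.03, 8.0 and 7.96 in shRNA cells and 3.87 and 4.03 in GFP cells. SULF1, which removes sulfate from heparan chains, read 4.14, 4.44 and 4.07 against 8.17 and 8.12 in GFP cells. CHST7, a chondroitin sulfotransferase, rose by 2.84 (2.53 with the floor), and PAPSS1, which makes the sulfate donor, by 1.24.

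LIM proteins that meet FHL2 at adhesions and on actin were measured as a list of 24, of which 12 were lower and 2 higher, with a median of -0.12. Leaving out 1 array at a time gave 1 to 4 risers. LDB3, a partner of alpha-actinin in muscle, read 1.70 on all 3 shRNA arrays and 8.56 and 8.61 in GFP cells (-6.88, or -4.58 with the floor). PDLIM1, another actinin-binding protein, changed by -4.42 (-2.89 with the floor), and TGFB1I1, a paxillin relative known to bind nuclear receptors as FHL2 does, by -1.66. TES, LPP and PDLIM2 changed by -0.94, -0.69 and -0.93. LASP1, LIMD1, LIMK2 and AJUBA, at 0.04, 0.09, 0.03 and 0.10, did not pass the test, though another probe set of AJUBA was higher by 0.77. In the second list, of the FHL family and LIM-only proteins, 6 of 12 were lower and 2 higher. The 6 include FHL2, the target of the shRNAs, and FHL3, which lay under log2 4 in both groups. Against a minimum of 1.5-fold, 2 of the list were lower and 0 higher. CSRP1 and LMCD1 changed by -0.54 and -0.72, CRIP2 rose by 0.90, and LMO4 at -0.04 did not pass the test. The other probe set of LMCD1 gave 0.00.

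Adhesion receptor and actin genes had medians near 0. Of 25 integrins and adaptors 9 were lower, 3 higher and 13 not past the test, with a median of -0.07. ITGB3, the chain of the vitronectin receptor, read 10.28, 10.20 and 10.29 in shRNA cells and 11.31 and 11.41 in GFP cells, and ITGA9 and VCL changed by -1.35 and -0.99. Its partner ITGAV, and PTK2, the focal adhesion kinase, did not pass the test at -0.12 and 0.01; another probe set of PTK2 gave -0.45. Of 27 actin and contractility genes 10 were higher and 11 lower, ACTA2 among them at -1.25 and CNN3 and MYLK at 0.88 and 0.85; the other probe set of CNN3 went the other way, at -0.39. Of 25 cadherins and adhesion molecules 14 were lower and 4 higher (2 higher without either GFP array); JAM3, MCAM and NCAM1 changed by -3.13, -1.07 and -0.66 (the other probe set of JAM3, near the lowest values, gave 0.08), and CDH3 rose by 1.19.

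Growth factor pathways were lower more often than higher. Of 17 genes of the IGF axis 8 were lower and 1 higher; beside IGFBP3, the adaptor IRS1 and the receptor IGF1R changed by -1.03 and -0.77, IGFBP5 by -0.60, and IGFBP7 at -0.11 did not pass the test. Of 29 receptor tyrosine kinases and ligands 14 were lower and 2 higher. MET, the receptor of hepatocyte growth factor, read 11.79, 11.82 and 11.83 in shRNA cells and 13.44 and 13.38 in GFP cells. KDR, a VEGF receptor, read 7.88, 7.86 and 7.75 against 10.15 and 10.21 in GFP cells, and the ligands PDGFC, HBEGF and PDGFA changed by -2.42, -1.25 and -1.13. KITLG, the ligand of KIT, rose by 1.13. Of 36 genes of MAPK output and feedback 17 were lower and 5 higher. The immediate early factors EGR1, FOS and JUNB changed by -1.16, -1.09 and -1.17 and the phosphatase DUSP1 by -0.85, whereas FOSL1, which AP-1 complexes also contain, read 9.10, 9.02 and 9.10 in shRNA cells and 7.53 and 7.32 in GFP cells. MYC did not pass the test at 0.04.

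Of 28 genes of the TGF-beta, BMP and activin pathways 17 were lower and 4 higher. SMAD9, a mediator of BMP signals, changed by -4.91 (-3.65 with the floor), and the ligand TGFB2 by -2.09, while TGFB1 rose by 2.15 (1.36 with the floor), at 5.42, 5.33 and 5.34 in shRNA cells and 2.67 and 3.76 in GFP cells. ID3, an inhibitor of bHLH factors, fell by 0.86 and its relative ID4 rose by 0.93. SMAD4 did not pass the test at -0.01, though another of its probe sets gave -0.93. Of 24 YAP and TEAD targets 12 were lower and 8 higher: CCN1 fell by 1.73, but CCN2, often read as the same output, did not pass the test at 0.14. Of 21 WNT genes 9 were lower and 6 higher; WNT5A, a ligand that acts without beta-catenin and is linked to invasive melanoma, read 7.26, 7.45 and 7.20 in shRNA cells and 5.31 and 4.83 in GFP cells. Of 20 Notch and ephrin genes 11 were lower and 4 higher, with JAG1 and HEY2 at -1.33 and -1.44 and EFNB2 and HES4 at 1.34 and 1.55 (0.99 with the floor for HES4). In a list of the undifferentiated, invasive melanoma state 9 of 26 genes were higher and 9 lower, so its members shared no direction: TGFBI rose by 1.75 (0.92 with the floor) and DKK1 by 0.79 (0.29 without GFP replicate 1, limma adjusted p = 0.0575), and NT5E fell by 3.21 (-0.92 with the floor).

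The same shRNAs were tested in A375M2, a metastatic derivative of the A375 melanoma line, in 3 FHL2 shRNA and 3 GFP arrays. The lowest value on each array was 1.41 to 1.43 in C32 shRNA cells and 1.56 to 2.01 in C32 GFP cells, and 0.53 in A375M2 shRNA cells and 0.60 in A375M2 GFP cells, so the arrays of neither line share a lowest level. The difference between the effects, C32 minus A375M2, was tested in the same fit. It passed for 8772 of 10940 genes (80.2%), 4604 with the higher effect in C32 (42.1%) and 4168 with the lower (38.1%). In A375M2 alone 4497 genes were higher (41.1%) and 4844 lower (44.3%) in shRNA cells. FHL2 itself fell by 5.24 in C32, and its A375M2 difference was -4.04, and the difference of -1.21 passed the test (SE 0.215, limma adjusted p = 6.21e-05).

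**Figure D4:**
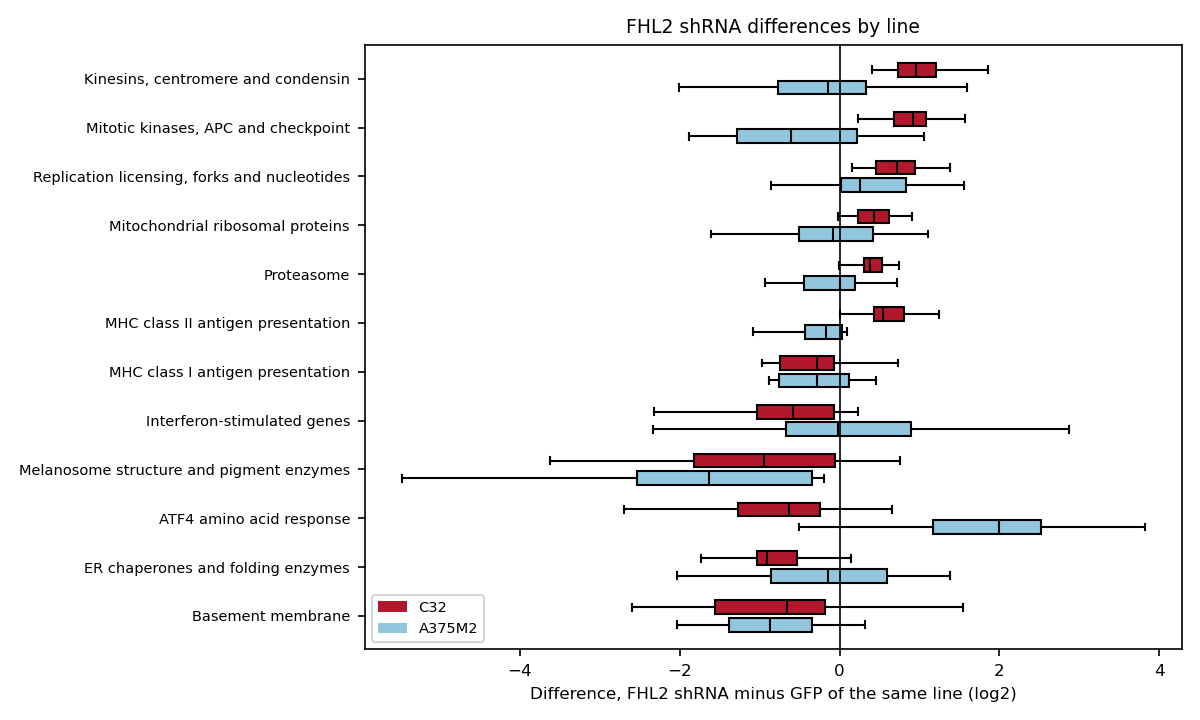
Log2 difference, FHL2 shRNA minus GFP, of the members of 12 gene lists in C32 and in A375M2. Boxes span the quartiles with the median as a line, whiskers reach 1.5 times the box, and the ATF4 list has medians of -0.64 in C32 and 1.99 in A375M2.

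Several lists lay on opposite sides of 0 in the lines. The ATF4 list had a median of -0.64 in C32 and 1.99 in A375M2, and for 31 of its 33 genes the C32 effect was lower. ASNS fell by 2.70 in C32 and rose by 3.82 in A375M2. The mitotic kinase list had a median of 0.92 in C32 and -0.61 in A375M2, with a higher effect in C32 for 30 of 33 genes, among them AURKB at 1.20 and -1.46. Oxidative phosphorylation had medians of 0.41 and -0.34, with a higher effect in C32 for 40 of 50 genes. The interferon list had medians of -0.58 and -0.02, with a lower effect in C32 for 32 of 43. ER chaperones had medians of -0.91 and -0.15, with a lower effect in C32 for 23 of 30. The pigment list was low in both lines, at -0.95 and -1.63, and its interaction was split, 8 genes higher in C32 and 7 lower; TYRP1 fell by 6.62 in C32, with -5.48 in A375M2. The medians over all genes were 0.00 in C32 and -0.04 in A375M2.

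Single genes differed more. TXNIP stood at 12.45 ± 0.05 in A375M2 shRNA cells and 12.75 ± 0.07 in A375M2 GFP cells (SD, n = 3 each). Its difference was -0.30 in A375M2 and 7.98 in C32. IGFBP3 stood at 13.77 ± 0.05 in A375M2 shRNA cells and 13.37 ± 0.08 in A375M2 GFP cells, a difference of 0.40 against -8.25 in C32. COL8A1 rose by 3.06 in C32 and fell by 5.21 in A375M2, and EFEMP2 fell by 5.87 in C32 against a difference of 0.97 in A375M2. For SOX9, PPP1R3C and ITGA10 the larger change was in A375M2, where they changed by -9.48, -8.78 and -8.08 (-7.91, -7.25 and -7.47 with the floor, since their A375M2 shRNA means of 2.43, 2.46 and 3.40 lie under log2 4), against -0.70, -0.62 and -0.91 in C32. CNTN4 rose by 8.90 in A375M2, or 7.78 with the floor, and IL24 and S100A2 by 7.10 and 6.92, against differences of -1.57, -0.08 and 0.27 in C32. IL24 lay under log2 4 in both C32 groups, at 3.51 in shRNA cells and 3.59 in GFP cells, so the array cannot show a fall there.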

How the data were processed

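RNA of 2 human melanoma lines was measured on Affymetrix arrays, and the log2 values used here are those the authors deposited, background-corrected and normalised with GCRMA per the submitters' processing notes, which name no version. The table held 23416 probe sets, of which 20264 had 1 gene symbol, 995 several, 2099 none and 58 were controls. For 20254 probe sets the symbol was taken from RefSeq by Entrez number, whether or not it changed. Genes were represented by the probe set with the highest mean and kept where at least 3 arrays reached log2 4, which left out 758 probe sets. limma 3.58.1 in R 4.3.3 (lmFit, eBayes with a trend) was fitted to 17 arrays of all 6 groups with 11 residual degrees of freedom, and p-values were adjusted by Benjamini-Hochberg over all 10940 genes. The number of arrays limits the precision. Where a value with the floor is given, levels under log2 4 were set to 4. The script that fits the genes was tested on simulated data. Named genes were FHL2, PMEL and NFYA, the 15 largest rises and 15 largest falls without overlap ranked with the floor, within each list up to 8 called members with the largest change and up to 4 not called, lists of 12 or fewer in full, and for the test between lines the 5 largest each way. Members, lists and tests were chosen with earlier results of these data known. Alternatives were other array sets, filters, scalings, probe sets, variance models, thresholds and leaving out single arrays. Promoter letters were searched with Python 3.11.15 in RefSeq sequences of GRCh38.p14.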

Additional observations from a re-analysis of the deposited data

Results flagged for a closer look

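The effect of the FHL2 shRNAs differed between the lines by a test of the difference itself, C32 minus A375M2. The effect was higher in C32 for 4604 genes and lower for 4168 (limma adjusted p under 0.05), which is 80.2% of the 10940 tested, so a single gene among them does not stand out by passing. FHL2 differed by -1.21 between lines (SE 0.215, limma adjusted p = 6.21e-05). Of the genes named for C32, the largest differences with the higher effect in C32 were SOX9 at 8.78, TXNIP at 8.28, COL8A1 at 8.27, PPP1R3C at 8.16 and ITGA10 at 7.17. Those with the lower effect in C32 were CNTN4 at -10.47, IGFBP3 at -8.65, IL24 at -7.19, EFEMP2 at -6.84 and S100A2 at -6.65. With levels under log2 4 set to 4, the 5 higher ones were at 7.21, 7.94, 8.2, 6.62 and 6.57 in that order of genes, so COL8A1 came first, and CNTN4 was at -9.35, IGFBP3 at -7.88, IL24 at -7.10, EFEMP2 at -5.08 and S100A2 at -6.65. By list, the effect was lower in C32 for 31 ATF4 genes, 32 interferon-stimulated genes and 23 ER chaperone genes, and higher for 30 mitotic kinase and checkpoint genes and 40 genes of oxidative phosphorylation. The pigment list was divided, with 8 genes higher and 7 lower.

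Signal outside the gene comparisons also differed between the C32 groups. Probe sets for 18S ribosomal RNA read 13.94 ± 0.10 in shRNA cells (SD, n = 3) and 13.28 ± 0.13 in GFP cells (SD, n = 2), while those for 28S read 11.37 ± 0.11 in shRNA cells and 11.28 ± 0.04 in GFP cells. Of 2853 probe sets annotated to several genes or to none, 126 were at least 2-fold higher in shRNA cells and 142 lower (limma adjusted p under 0.05 over all probe sets tested), and they are not named. Over all 10940 genes, 385 were at least 2-fold higher (3.52%) and 551 lower (5.04%), so these counts do not set such probe sets apart.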

How the results depend on the processing

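All settings named here were run on the count of genes called in C32, on FHL2, on the test between lines, on each list's counts and on 300 other named genes. Against a minimum of 1.5-fold (limma's treat), 604 genes were higher and 738 lower in shRNA cells, and between lines 2344 were higher and 2153 lower; every other setting kept these counts within 1.5 times. That minimum also moved 109 of 130 list counts by over 1.5 times, and 54 of the named genes lost their call; MHC class II risers went to 2, and those of the proteasome to 1. Leaving out 1 array at a time gave 3191 to 3408 genes higher and 2960 to 3187 lower, at least 2-fold 389 to 411 higher and 544 to 572 lower, between lines 4427 to 4541 higher and 4039 to 4141 lower, and FHL2 differences of -5.38 to -4.97. FHL2 stayed past the test in every setting. Centring arrays on their median moved the median of all genes to 0.04 and the share of calls that were higher to 56.6%, from 51.5%. With the probe set of largest variance, here another probe set of the same gene, NFYC (0.41), PTK2 (-0.45) and TRAF6 (-0.05) changed sign. Why the probe sets of these genes disagree was not tested. The C32 arrays alone could not give the test between lines. With the replicate number as a block, 3313 genes were higher and 3138 lower (393 and 558 at least 2-fold), between lines 4498 were higher and 4092 lower, and FHL2 differed by -4.97; of the named genes only RFX5 lost its call (-0.13, limma adjusted p = 0.0614). The labels do not say that equal numbers mark a pairing, and deviations of same-numbered shRNA and GFP arrays correlated at 0.053 over 8727 genes. GCRMA signals near the lowest values limit what can be said of weakly expressed genes.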

Other observations

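Counts in further lists are set against 32.2% higher and 30.3% lower over all genes, and several lie near those shares. Of 27 measured genes of the BCL2 family and death receptors, which govern apoptosis, 11 were higher and 6 lower in shRNA cells (40.7% and 22.2%). The BH3-only activators BIK and BID rose by 1.56 and 1.21, whereas BCL2L11, another activator, fell by 1.34 (its 3 probe sets ranged from -1.34 to 0.08) and the survival protein MCL1 did not pass the test at -0.01. Of 27 autophagy genes 3 were higher and 12 lower (11.1% and 44.4%), with ATG14 at -1.01 and ATG4A at 0.71. Of 14 genes of the circadian clock and its output factors 1 was higher and 8 lower (7.14% and 57.1%). RORA, a nuclear receptor of the clock, changed by -2.15, BHLHE40 and NFIL3, repressors of clock genes, by -1.07 and -1.03, and CLOCK rose by 0.65.

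Of 15 cancer-testis antigens 2 were higher and 7 lower (13.3% and 46.7%; 4 lower in a fit of the C32 arrays alone). PRAME, an antigen of many melanomas, changed by -0.89. Of 15 genes of iron and copper handling 4 were higher and 6 lower (26.7% and 40%). Beside transferrin, the iron importer SLC11A2 changed by -1.14, while the transferrin receptor TFRC rose by 0.72 and the copper chaperone ATOX1 by 0.63. Of 26 transporters of metals, ions and nucleosides 7 were higher and 10 lower (26.9% and 38.5%). KCNJ13, a potassium channel, changed by -3.40 (-1.95 with the floor) and KCNN4, a potassium channel opened by calcium, rose by 1.16.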
